A study of Mus musculus with 10 samples.

Results

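The 55 genes described here carry out or control the cell division cycle, and they were read by symbol from each of 4 deposited comparison tables that list the same 13091 genes. All 55 were listed, 21 of them acting in DNA replication and nucleotide supply, 18 in mitosis and 16 in cell cycle control. The cells were neutrophils grown in culture from bone marrow progenitors of 129-SVEV mice, which had been immortalized with a lentivirus carrying an estrogen-dependent HoxB8 and then expanded as clonal lines from sorted individual cells. Withdrawal of estrogen switches HoxB8 off and lets the progenitors mature. RNA was sequenced from 2 Vim+/+ replicates (numbers 1 and 3 in the labels) and 3 Vim-/- replicates (numbers 1 to 3), each left unstimulated or treated with 25 ng/mL lipopolysaccharide (LPS), a bacterial cell wall component, for 1 h, giving 10 libraries in 4 groups. The sample labels call the vimentin-negative cells a knockdown and the methods derive them from knockout mice, and every group carries the HoxB8 construct. The labels call the replicates biological but do not say whether each is a separate clone, culture or day, and since no line can carry both genotypes, genotype and line cannot be told apart beyond the spread that the standard errors hold.

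Cells that divide copy their DNA in S phase and separate it in mitosis. Replication starts where the origin licensing factors Cdc6 and Cdt1 load the ring-shaped Mcm2 to Mcm7 helicase, after which DNA polymerases, their clamp Pcna and the clamp loader extend the strands with nucleotides that ribonucleotide reductase and thymidylate synthase supply. Cyclins and cyclin-dependent kinases (CDKs) drive each step, while CDK inhibitors such as Cdkn1a (p21), which p53 induces, hold it back. Many replication genes are transcribed when E2F factors are free of the retinoblastoma protein Rb1, which holds them inactive. Many mitotic genes are repressed by the DREAM complex through a promoter element, the cell cycle homology region (CHR), and are activated later in the cycle by B-Myb and Foxm1. Granulocyte precursors proliferate in the bone marrow, and neutrophils leave the cell cycle as they mature.

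The values are those of the authors' deposited tables. Expression is given as baseMean, the mean of normalized read counts over all libraries, and each comparison as a log2 fold change with its standard error (SE) and an adjusted p. Genotype comparisons are written as Vim-/- over Vim+/+, so that a positive value is higher expression in Vim-/- neutrophils. A gene is said to have passed, and to have risen or fallen, at an adjusted p under 0.05. No values per library are in the tables, so library depth is unknown, the groups cannot be shown library by library, and p-values measure only the spread between these replicates as the authors' model held it. That model, with 10 libraries, 4 groups and 4 covariates, leaves 2 residual degrees of freedom. Vim itself, which encodes vimentin (chromosome 2, 13574311 to 13582826, GRCm38.p6), had a log2 fold change of -13.56 (SE 0.335) in unstimulated and of -12.44 (SE 0.243) in LPS-treated Vim-/- neutrophils. In bulk RNA, a larger share of dividing cells and more RNA of these genes per cell cannot be told apart.

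The promoters of the replication and mitosis genes were searched for short motifs of the E2F and CHR pathways. RefSeq windows of GRCm38.p6, from 250 bases before to 50 bases after a listed transcript start, were found for 44 of the 55 genes (48 windows), and none was matched for Pole, Ccne2, Aurkb, Foxm1, Gins2, Ccna2, Gins1, Kif20a, Rb1, Tpx2 and Mcm4. On either strand, 1 of 4 E2F-like octamers (TTTGGCGC, TTTCCCGC, TTTGCCGC or TTTCGCGC) was present in 9 of 18 replication windows, 2 of 15 control windows and 0 of 15 mitosis windows. Of all 32851 windows that RefSeq gave, 2.26% held such an octamer, and of the windows of genes with comparison values 3.83%. A CHR hexamer (TTTGAA or the palindrome TTTAAA) together with a CCAAT box (CCAAT) was present in 12 of 15 mitosis windows (80.0%), 3 of 18 replication windows (16.7%) and 4 of 15 control windows (26.7%), against 10.7% of all windows and 7.99% of those of genes in the tables. These are matches of letters and not measured binding sites.

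The windows below are those of the 2 replication and the 2 mitosis genes with the largest Wald statistic in unstimulated neutrophils among genes whose window held these motifs, and they show how the motifs sit around the start. They are written 5′ to 3′ in the direction of the gene, and capitals mark the E2F-like octamers of Mcm6 (chr1:128359656-128359955, minus strand) and Cdc6 (chr11:98907901-98908200, plus strand).
Mcm6: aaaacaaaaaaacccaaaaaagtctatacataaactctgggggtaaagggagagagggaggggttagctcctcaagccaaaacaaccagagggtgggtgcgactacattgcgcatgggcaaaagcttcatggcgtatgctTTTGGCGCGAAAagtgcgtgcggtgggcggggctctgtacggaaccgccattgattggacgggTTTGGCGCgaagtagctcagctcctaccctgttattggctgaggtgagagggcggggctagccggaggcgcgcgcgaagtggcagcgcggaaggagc
Cdc6: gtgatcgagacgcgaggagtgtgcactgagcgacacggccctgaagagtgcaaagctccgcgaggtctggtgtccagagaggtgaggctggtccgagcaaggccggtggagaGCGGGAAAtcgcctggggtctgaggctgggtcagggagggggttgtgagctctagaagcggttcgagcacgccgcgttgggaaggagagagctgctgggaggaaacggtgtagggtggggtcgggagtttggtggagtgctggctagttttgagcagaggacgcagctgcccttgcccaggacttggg
In Mcm6 the octamers begin 110, 106 and 47 bases before the start, and those at 110 and 106 overlap on opposite strands. In Cdc6 the octamer begins 138 bases before the start listed for this window, which lies inside the gene's RefSeq span (98907709 to 98923942). In the next windows capitals mark CHR hexamers and CCAAT boxes, a box on the other strand reading ATTGG, in Cenpf (chr1:189688037-189688336, minus strand) and Bub1b (chr2:118597961-118598260, plus strand).
Cenpf: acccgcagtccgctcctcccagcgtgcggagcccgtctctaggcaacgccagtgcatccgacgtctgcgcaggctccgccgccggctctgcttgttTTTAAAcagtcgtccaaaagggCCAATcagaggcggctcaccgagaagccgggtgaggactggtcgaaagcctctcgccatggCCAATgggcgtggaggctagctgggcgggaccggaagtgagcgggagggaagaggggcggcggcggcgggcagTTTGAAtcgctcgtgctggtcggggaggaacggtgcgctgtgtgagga
Bub1b: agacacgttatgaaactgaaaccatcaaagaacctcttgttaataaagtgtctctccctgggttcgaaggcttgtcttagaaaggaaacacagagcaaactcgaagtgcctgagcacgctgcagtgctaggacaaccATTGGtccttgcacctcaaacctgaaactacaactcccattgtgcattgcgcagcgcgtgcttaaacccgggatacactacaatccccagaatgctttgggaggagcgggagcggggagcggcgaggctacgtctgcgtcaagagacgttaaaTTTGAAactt
Cenpf has hexamers beginning 154 bases before and 2 bases after the start and CCAAT boxes beginning 132 and 71 bases before it, while in Bub1b the box begins 113 bases before and the hexamer 40 bases after the start.

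Most of the cell cycle genes were abundant in these neutrophils. Of the 55, 48 had a baseMean above the median of all genes (907), and the lowest was that of Gins1 (347). Per kilobase of principal transcript, the scale on which genes can be compared, 46 were above the median of all genes (348). The highest levels were those of Ccnd3 (cyclin D3, 14710 normalized counts per kilobase), Cdkn1a (10741), Ube2c (4263), Rrm2 (3702) and Pcna (3631), and the lowest that of Pole (133). The median level per kilobase was 911 for replication, 1012 for mitosis and 749 for control genes.

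In unstimulated neutrophils, 27 of the 55 genes passed, of which 26 were higher in Vim-/- and 1, Cdkn1a, was lower. Of all 13091 genes 18.4% passed, 12.4% being higher and 6.03% lower. The median log2 fold change was 0.47 over the 55 genes, against 0.08 over all genes, and 51 of the 55 were above 0 (7313 of all 13091 genes were). By role the median was 0.71 for mitosis, 0.38 for replication and 0.33 for control genes. The changes were modest in size: 8 of the 55 also had an absolute log2 fold change over 1 (7.0% of all genes did), namely Cenpf, Mki67, Cenpe, Bub1b, Pole, Cdkn2c and Foxm1, which were higher, and Cdkn1a.

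These calls rest on the authors' standard errors. Over all genes the Wald statistic (the log2 fold change divided by its SE) of this comparison had a robust spread of 1.83 around a median of 0.25, where a spread of 1 would follow if no gene differed and the errors were exact, and true differences also widen it. With every Wald statistic centred on that median and divided by that spread, Cdkn1a alone of the 55 genes passed, beside 1.44% of all genes.

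Among the 21 replication genes, 8 rose in unstimulated Vim-/- neutrophils and none fell. All 6 helicase subunits were above 0, and 4 of them passed. Mcm4 was higher by 0.77 (SE 0.172, adjusted p = 0.000171), Mcm6 by 0.73 (SE 0.172, adjusted p = 0.00038), Mcm5 by 0.44 (SE 0.154, adjusted p = 0.028) and Mcm3 by 0.38 (SE 0.129, adjusted p = 0.0225). Mcm2 (0.40, SE 0.175, adjusted p = 0.0911) and Mcm7 (0.34, SE 0.147, adjusted p = 0.0886) did not pass. Of the licensing factors, Cdc6 rose by 0.87 (SE 0.267, adjusted p = 0.0103), which is 1.82-fold (95% interval 1.27 to 2.62), while the value of Cdt1 was 0.09 (SE 0.241, adjusted p = 0.84). Gins1 and Gins2, which belong to the GINS complex of the active helicase, had the values 0.07 (SE 0.401, adjusted p = 0.933) and 0.48 (SE 0.314) and did not pass.

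Of the polymerases, clamp and clamp loader, 2 of 7 genes passed, and neither did when fold changes were centred by transcript length (described further on). Pole, the catalytic subunit of the leading strand polymerase epsilon, rose by 1.09 (SE 0.281, adjusted p = 0.00159), and Pold1, that of the lagging strand polymerase delta, by 0.61 (SE 0.206, adjusted p = 0.022). Pola1, the polymerase of the priming complex, was at 0.47 (SE 0.272) and its primase partner Prim1 at -0.03 (SE 0.296, adjusted p = 0.958). The clamp Pcna (0.22, SE 0.165) and the clamp loader subunits Rfc3 (-0.02, SE 0.276, adjusted p = 0.979) and Rfc4 (0.17, SE 0.311) did not pass either. Of the nucleotide enzymes Rrm1, the large subunit of ribonucleotide reductase, rose by 0.87 (SE 0.202, adjusted p = 0.000309). Its partner Rrm2 was at 0.29 (SE 0.148, adjusted p = 0.174), thymidylate synthase Tyms at 0.26 (SE 0.186) and thymidine kinase Tk1 at 0.17 (SE 0.225).

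All 18 mitosis genes were above 0 in unstimulated neutrophils, and 13 rose. The largest value was that of Cenpf, a kinetochore protein, at 1.33 (SE 0.233, adjusted p = 5.5e-07), or 2.52-fold (95% interval 1.84 to 3.46). The proliferation marker Mki67 rose by 1.2 (SE 0.248, adjusted p = 3.49e-05), the kinetochore motor Cenpe by 1.16 (SE 0.310, adjusted p = 0.00225) and topoisomerase Top2a, which untangles chromosomes, by 0.99 (SE 0.220, adjusted p = 0.000154). Of the kinases and checkpoint genes, the checkpoint kinase Bub1b rose by 1.03 (SE 0.210, adjusted p = 2.47e-05), Aurkb by 0.73 (SE 0.185, adjusted p = 0.00122) and Plk1 by 0.52 (SE 0.193, adjusted p = 0.0418). The spindle motors Kif23 (0.91, SE 0.198, adjusted p = 9.52e-05), Kif11 (0.83, SE 0.272, adjusted p = 0.0168) and Kif20a (0.73, SE 0.209, adjusted p = 0.00496) and the spindle protein Tpx2 (0.59, SE 0.192, adjusted p = 0.0165) also rose.

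Cdc20, which activates the anaphase-promoting complex, rose by 0.66 (SE 0.216, adjusted p = 0.0172), and Birc5, the survivin subunit of the chromosomal passenger complex, by 0.47 (SE 0.174, adjusted p = 0.0405). The other 5 mitosis genes did not pass. They were the kinases Ttk (0.70, SE 0.337, adjusted p = 0.14), Bub1 (0.59, SE 0.234, adjusted p = 0.0608) and Aurka (0.41, SE 0.186, adjusted p = 0.105), the spindle protein Nusap1 (0.41, SE 0.216, adjusted p = 0.182) and Ube2c, the ubiquitin-conjugating enzyme of the anaphase-promoting complex (0.40, SE 0.189, adjusted p = 0.135).

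Among the 16 control genes, 5 rose and 1 fell. Cdkn1a (chromosome 17, 29090979 to 29100722) fell by 1.04 (SE 0.125, adjusted p = 1.66e-14), so that its transcript was 2.05-fold lower in Vim-/- neutrophils (95% interval 1.73 to 2.43), with a baseMean of 22342. The other CDK inhibitors did not follow it: Cdkn2c (p18) rose by 1.08 (SE 0.264, adjusted p = 0.000771) and Cdkn1b (p27) was at 0.26 (SE 0.174, adjusted p = 0.321). Foxm1, an activator of mitotic genes, rose by 1.06 (SE 0.205, adjusted p = 8.19e-06), and the mitotic cyclins Ccnb2 (0.55, SE 0.174, adjusted p = 0.0124) and Ccnb1 (0.52, SE 0.199, adjusted p = 0.0497) rose as well. Their kinase Cdk1 was at 0.43 (SE 0.180, adjusted p = 0.0791) and Ccna2, cyclin A2, at 0.41 (SE 0.216).

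Of the 8 genes that act at the entry to S phase, Ccne1 (cyclin E1) passed, at 0.91 (SE 0.227, adjusted p = 0.000906). Its relative Ccne2 was at 0.71 (SE 0.354, adjusted p = 0.152). The kinases Cdk2 (0.24, SE 0.155), Cdk4 (0.20, SE 0.169) and Cdk6 (-0.07, SE 0.226, adjusted p = 0.875), the cyclin Ccnd3 (0.06, SE 0.139, adjusted p = 0.816), E2f1 (0.17, SE 0.211) and Rb1 (0.10, SE 0.194, adjusted p = 0.791) did not pass.

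**Figure D1:**
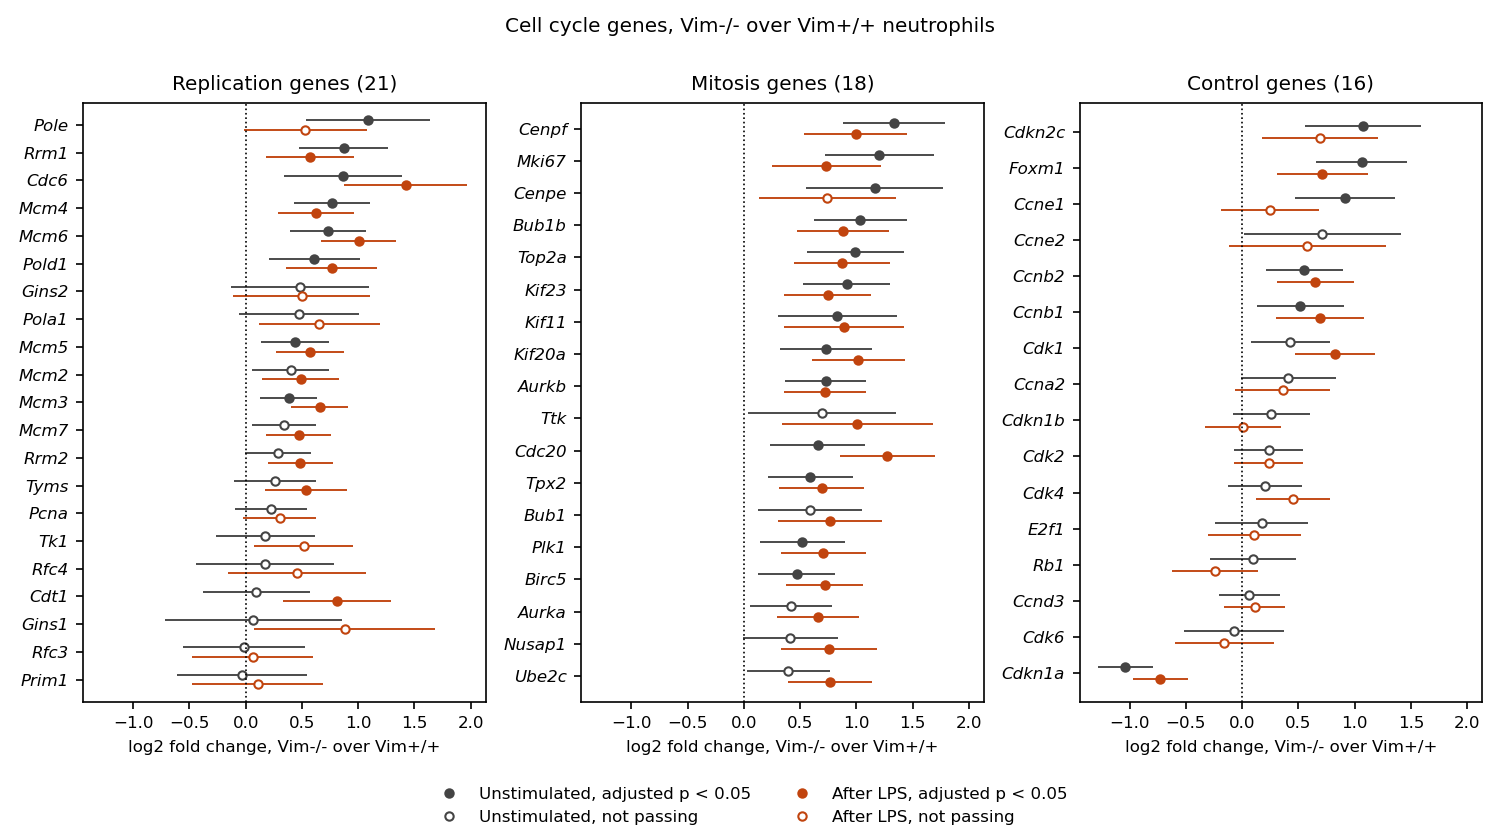
Log2 fold change of each of the 55 genes, Vim-/- over Vim+/+, in unstimulated (grey) and LPS-treated (orange) neutrophils, in 3 role groups. Points are the fitted values, lines their 95% confidence intervals from the standard errors, and filled points passed an adjusted p under 0.05. All 18 mitosis genes lie above 0 in both conditions, and Cdkn1a is the gene that passed below 0.

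After 1 h of LPS, 34 of the 55 genes passed between the genotypes, 33 of them higher in Vim-/- and Cdkn1a lower. Of all genes 10.8% passed, 6.55% being higher and 4.27% lower. The median log2 fold change over the 55 genes was 0.66 (all genes, 0.03), with 0.76 for mitosis, 0.53 for replication and 0.30 for control genes. An absolute log2 fold change over 1 in addition was seen for 5 genes, Cdc6, Cdc20, Kif20a, Ttk and Mcm6, and for 5.22% of all genes. The robust spread of the Wald statistic over all genes was 1.5, and with the statistics centred and divided by it 5 of the 55 genes passed (Mcm3, Mcm6, Cdc6, Cdc20 and Cdkn1a), beside 2.22% of all genes. Each LPS library carries the same replicate number and code in the labels as an unstimulated library, so the 2 genotype comparisons may not be independent.

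In replication 12 of the 21 genes were higher in Vim-/- than in Vim+/+ neutrophils after LPS. All 6 helicase subunits were among them. Mcm7 was at 0.47 (SE 0.147, adjusted p = 0.0175) and Mcm2 at 0.49 (SE 0.175, adjusted p = 0.0471). Mcm5 was at 0.57, Mcm4 at 0.63, Mcm3 at 0.66 and Mcm6 at 1.0 (SE 0.172, adjusted p = 4.16e-07). Cdc6 had the largest value of the 55 genes, 1.42 (SE 0.279, adjusted p = 1.6e-05), or 2.68-fold (95% interval 1.84 to 3.92). Its licensing partner Cdt1 was higher by 0.81 (SE 0.245, adjusted p = 0.0129). Pold1 (0.76, SE 0.206, adjusted p = 0.00435), Rrm1 (0.57, SE 0.201, adjusted p = 0.0422), Rrm2 (0.49, SE 0.148, adjusted p = 0.0146) and Tyms (0.53, SE 0.186, adjusted p = 0.0405) completed the 12.

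The 9 replication genes that did not pass after LPS included Pole (0.53, SE 0.280, adjusted p = 0.244). Gins1 had a value of 0.88 (SE 0.411, adjusted p = 0.166) and Pola1 of 0.66 (SE 0.274, adjusted p = 0.108). Tk1 (0.52), Gins2 (0.50), Rfc4 (0.46), Pcna (0.30), Prim1 (0.11) and Rfc3 (0.06) made up the rest. All 21 values were above 0, as were 6986 of all 13091 genes.

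In mitosis 17 of the 18 genes were higher in Vim-/- after LPS, with values from 0.66 for Aurka (SE 0.187, adjusted p = 0.00756) to 1.27 for Cdc20 (SE 0.216, adjusted p = 3.14e-07). Cenpe, at 0.74 (SE 0.310, adjusted p = 0.107), did not pass. The range was narrower than in unstimulated neutrophils, where the 18 values ran from 0.40 to 1.33. Kif20a was at 1.02 (SE 0.209, adjusted p = 4.89e-05), Ttk at 1.01 (SE 0.342, adjusted p = 0.0332) and Cenpf at 0.99 (SE 0.233, adjusted p = 0.000629). Kif11 (0.89), Bub1b (0.88), Top2a (0.87), Bub1 and Ube2c (0.77 each), Nusap1 (0.76), Kif23 (0.75), Mki67 (0.73), Aurkb and Birc5 (0.72 each), Plk1 (0.70) and Tpx2 (0.69) lay between. Their adjusted p ran from 0.000777 for Bub1b to 0.0331 for Mki67.

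Of the control genes, Cdk1 (0.82, SE 0.181, adjusted p = 0.000191), Foxm1 (0.71, SE 0.206, adjusted p = 0.00892), Ccnb1 (0.69, SE 0.199, adjusted p = 0.00832) and Ccnb2 (0.65, SE 0.174, adjusted p = 0.00391) were higher in Vim-/- after LPS. Cdkn1a was lower in Vim-/- than in Vim+/+ neutrophils after LPS, by 0.73 (SE 0.124, adjusted p = 3.97e-07), which is 1.66-fold (95% interval 1.40 to 1.96). Cdkn2c had a value of 0.69 (SE 0.263, adjusted p = 0.0685) and Ccne1 of 0.25 (SE 0.221, adjusted p = 0.568). None of the 8 genes of S phase entry passed, the others being Ccne2 (0.58), Cdk4 (0.45), Cdk2 (0.23), Ccnd3 and E2f1 (0.11 each), Cdk6 (-0.16) and Rb1 (-0.24). Ccna2 (0.36, SE 0.216) and Cdkn1b (0.01, SE 0.174) did not pass either. Over both genotype comparisons, 38 of the 55 genes passed in at least 1 and 17 in neither, the 17 being 8 replication and 9 control genes. Of all genes 18.4% passed unstimulated and 10.8% after LPS. The share of all genes that passed in at least 1 of the 2 is not given, so the 38 have no background beside them.

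**Figure D2:**
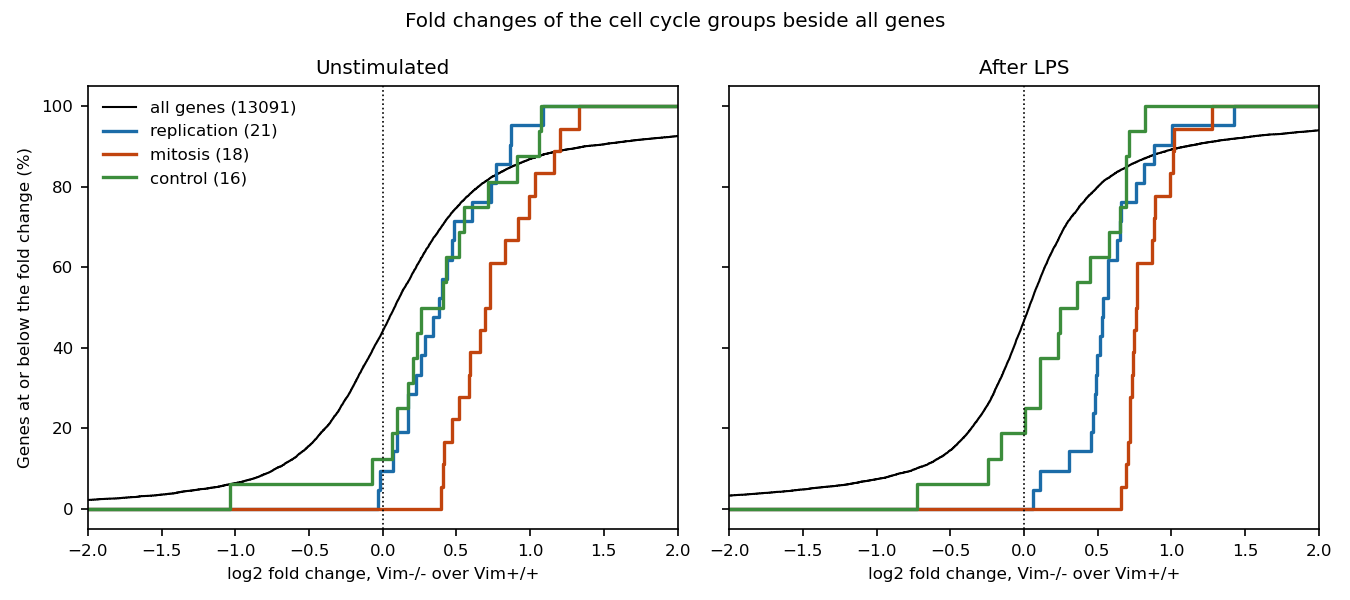
Cumulative share of genes (%) against log2 fold change, Vim-/- over Vim+/+, for all 13091 genes (black) and for the replication, mitosis and control groups, in unstimulated and LPS-treated neutrophils. The axis is shown from -2 to 2. At the median the mitosis curve lies farthest to the right, at 0.71 and 0.76 against 0.08 and 0.03 for all genes, and the curves cross toward the upper end.

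With LPS for 1 h, the share of the 55 genes that passed was near that of all genes in both genotypes. In Vim+/+ neutrophils 0 of the 55 passed in the authors' DESeq2 test (2.17% of all genes did), and 5 had an unadjusted p under 0.05 (11.7% of all genes). These were Ccne1 at 0.75 (SE 0.244, adjusted p = 0.0786), Pole at 0.65 (SE 0.305), Mki67 at 0.56 (SE 0.268), Cenpf at 0.52 (SE 0.252) and Cdt1 at -0.63 (SE 0.262), the last 4 with adjusted p-values from 0.26 to 0.39. The 55 values ran from -0.64 to 0.75, with a median of 0.03 and 30 above 0. Over all genes the median was 0.01, with 6620 of 13091 above 0.

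In Vim-/- neutrophils 2 of the 55 genes rose with LPS, where 2.08% of all genes passed. Cdkn1a rose by 0.51 (SE 0.113, adjusted p = 0.000655) and Rrm2 by 0.49 (SE 0.134, adjusted p = 0.0164). Mcm3 (0.29, SE 0.117, adjusted p = 0.31) was the third gene with an unadjusted p under 0.05, which 7.23% of all genes had. The values ran from -0.20 to 0.51, with a median of 0.12 and 48 of the 55 above 0. Over all genes the median was -0.02, with 6200 of 13091 above 0. The same genes in Vim+/+ neutrophils were at 0.20 (SE 0.134) for Cdkn1a and 0.29 (SE 0.160) for Rrm2.

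The genotypes were not shown to differ in their LPS response at any of these genes. The difference between the responses, LPS in Vim-/- less LPS in Vim+/+, is also the change of the genotype difference with LPS. It passed at 0 of the 55 genes in a two-sided normal test with Benjamini-Hochberg adjustment over all genes (0.0764% of all genes passed), and 3 had an unadjusted p under 0.05 (6.04% of all genes). Those were Cdt1 at 0.72 (95% interval 0.05 to 1.39, adjusted p = 0.798), Cdc20 at 0.62 (0.02 to 1.21, adjusted p = 0.823) and Ccne1 at -0.66 (-1.28 to -0.05, adjusted p = 0.797). For Cdkn1a the difference was 0.31 (-0.03 to 0.65) and for Rrm2 0.20 (-0.21 to 0.61). The intervals leave room for differences of about the size of the genotype effects, so that Cdt1 passing after LPS and Ccne1 before it is not shown to be a difference between the conditions.

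**Figure D3:**
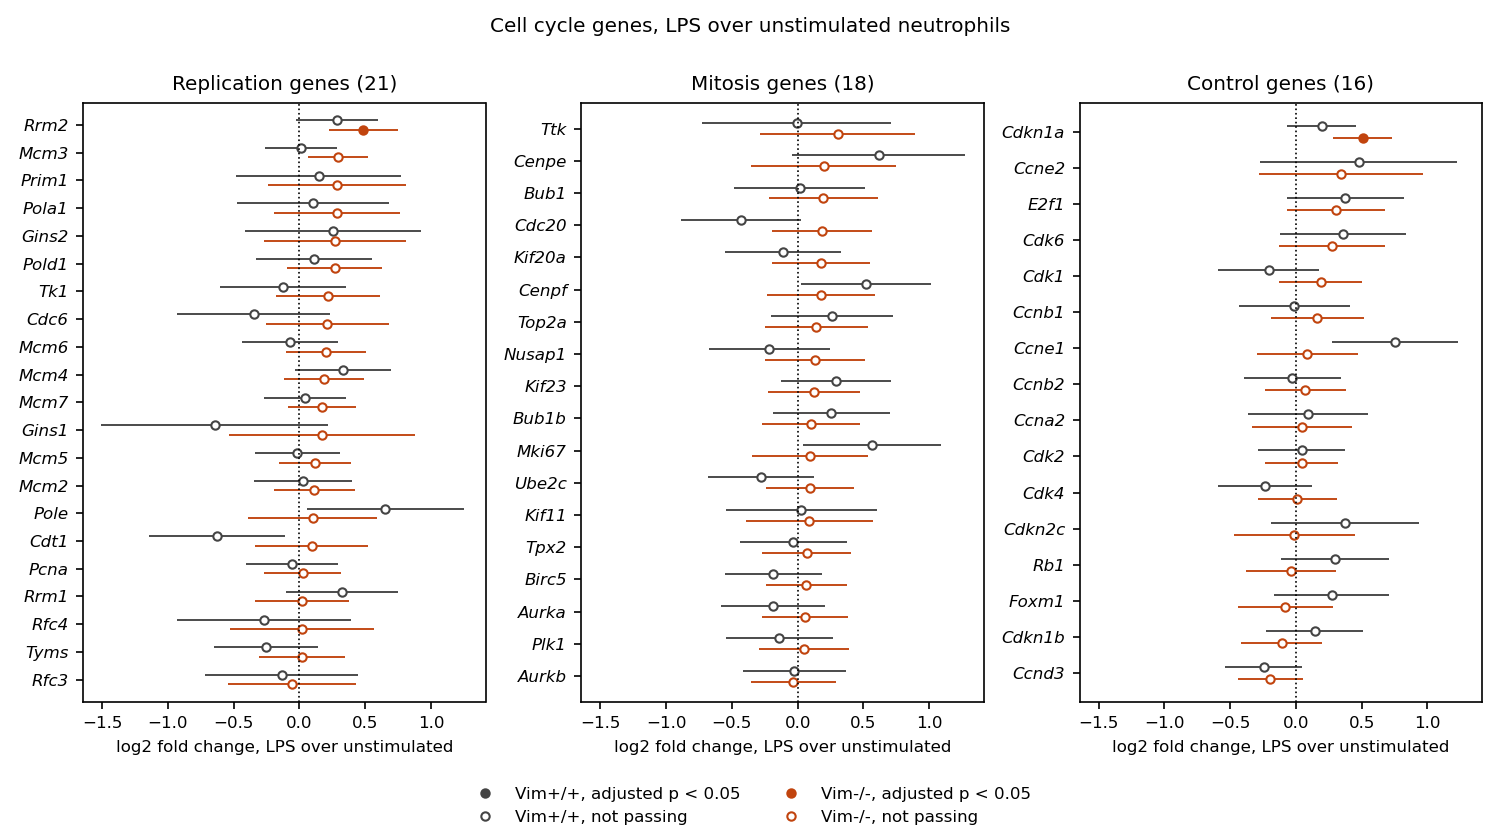
Log2 fold change of each of the 55 genes with LPS against unstimulated, in Vim+/+ (grey) and Vim-/- (orange) neutrophils, with 95% confidence intervals. Filled points passed an adjusted p under 0.05. Rrm2 and Cdkn1a in Vim-/- neutrophils are the points that passed.

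Transcript length moved with the genotype difference in unstimulated neutrophils. Across 12046 genes with a transcript length, Spearman's rho between length and log2 fold change was 0.31 unstimulated and 0.14 after LPS. It was 0.30 for LPS in Vim+/+ and 0.01 for LPS in Vim-/-. Among the 21 replication genes the same measure was 0.81 unstimulated and 0.25 after LPS, and among the 18 mitosis genes 0.80 and 0.19. For LPS in Vim+/+ it was 0.71 among replication and 0.82 among mitosis genes, and Pole, Mki67 and Cenpf, 3 of the 5 genes with an unadjusted p under 0.05 in that comparison, were among the longest. For the difference of LPS responses it was -0.58 and -0.74 (all genes, -0.27). The comparisons with the values farthest from 0 all hold the unstimulated Vim+/+ libraries. Cenpf (11130 bases), Mki67 (10061 bases), Cenpe (7910 bases) and Pole (7163 bases) were the longest replication and mitosis transcripts and had the largest unstimulated values of their groups. Ube2c (967 bases) was the lowest of the mitosis group, though the short Birc5 (947 bases) passed.

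With each log2 fold change centred on the median of genes of like length, an alternative added after seeing the data, 19 of the 55 genes passed in unstimulated neutrophils (18 higher, and 13.4% of all genes) and 30 after LPS (29 higher, and 1210 of 12046 genes). The mitosis genes kept a median of 0.66 unstimulated and 0.75 after LPS, the replication genes 0.29 and 0.51, and the control genes 0.26 and 0.28. In unstimulated neutrophils 9 genes no longer passed, Pole (0.69, adjusted p = 0.088), Cenpe (0.64, adjusted p = 0.173), Pold1 (0.44, adjusted p = 0.156), Mcm3, Mcm5, Kif11, Kif20a, Tpx2 and Ccnb1, and Ube2c then passed (0.72, adjusted p = 0.00285). Of the helicase subunits Mcm4 and Mcm6 were left there. After LPS 4 genes no longer passed, Mcm2 (0.42 when centred), Rrm1 (0.51), Tyms (0.49) and Mki67 (0.58), so that 5 of the 6 helicase subunits did. The part of RNA quality, library composition or length itself in the genotype difference was not tested.

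**Figure D4:**
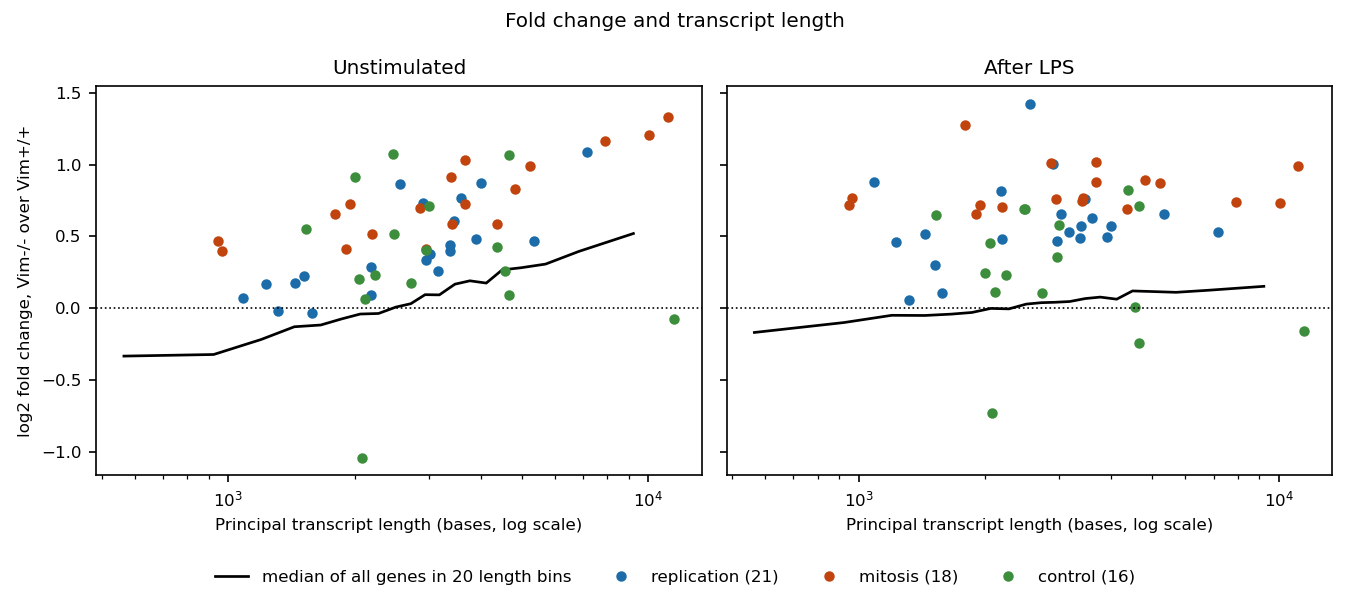
Log2 fold change, Vim-/- over Vim+/+, against the length of the principal transcript (bases, log axis) for the 55 genes, in unstimulated and LPS-treated neutrophils. The black line joins the medians of all genes in 20 bins of length. It climbs from -0.33 to 0.52 in unstimulated and from -0.17 to 0.15 in LPS-treated neutrophils, and most of the replication and mitosis points lie above it.

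Of a wider list of 137 other cell cycle genes, 47 passed in unstimulated neutrophils, 44 higher and 3 lower in Vim-/-, and 41 after LPS, 39 higher and 2 lower, where 18.4% and 10.8% of all genes passed. By role, 10 of 44 replication (22.7%), 27 of 53 mitosis (50.9%) and 10 of 40 control genes (25.0%) passed unstimulated, of which 9, 26 and 9 were higher in Vim-/- (12.4% of all genes were). After LPS 10 (22.7%), 23 (43.4%) and 8 of 40 passed, of which 10, 23 and 6 were higher (6.55% of all genes were). In the replication list Clspn, a mediator of the replication checkpoint, rose by 1.17 (SE 0.231, adjusted p = 1.52e-05) and the nuclease Exo1 by 1.53 (SE 0.333, adjusted p = 0.000111), both in unstimulated neutrophils. The polymerase delta subunit Pold3 rose by 0.58 (SE 0.198, adjusted p = 0.0248) and the polymerase epsilon subunit Pole4 fell by 0.75 (SE 0.237, adjusted p = 0.0129).

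In the wider mitosis list the unstimulated values were 0.97 (SE 0.194, adjusted p = 1.66e-05) for Prc1, which bundles midzone microtubules, 1.69 (SE 0.361, adjusted p = 7.32e-05) for the kinetochore scaffold Knl1 and 0.46 (SE 0.174, adjusted p = 0.044) for Racgap1 of the centralspindlin complex. Securin, Pttg1, fell by 0.87 (SE 0.276, adjusted p = 0.0135). In the control list the repressor E2f7 rose by 1.47 (SE 0.300, adjusted p = 2.66e-05), the CDK-activating phosphatase Cdc25b by 0.71 (SE 0.153, adjusted p = 7.84e-05) and the E2F partner Tfdp2 by 0.92 (SE 0.328, adjusted p = 0.032). Cdkn2a, which encodes the tumour suppressors p16, also a CDK inhibitor, and p19Arf, was lower in Vim-/- by 2.06 (SE 0.250, adjusted p = 2.92e-14) unstimulated. After LPS it was lower by 2.20 (SE 0.249, adjusted p = 3.95e-16). Cks2, a CDK-binding protein, was the other gene that was lower in Vim-/- after LPS (-0.56, adjusted p = 0.0278) and is named because of that value.

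Other targets of p53 moved in both directions. Of 16 listed targets 14 were in the tables, and 5 passed in unstimulated neutrophils, 3 higher and 2 lower in Vim-/-, with a median log2 fold change of -0.04. Of all genes 18.4% passed there and 10.8% after LPS. The antiproliferative gene Btg2 rose by 1.73 (SE 0.157, adjusted p = 2.1e-25) and Phlda3, an inhibitor of Akt, by 2.88 (SE 0.574, adjusted p = 1.7e-05). The cell death genes Bbc3 (-0.61, SE 0.204, adjusted p = 0.0192) and Bax (-0.54, SE 0.167, adjusted p = 0.0114) fell. After LPS 3 of the 14 passed, all higher.

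The neutrophil identity of the cultures was checked by markers, whose counts are read against the 18.4% of all genes that passed between the genotypes in unstimulated neutrophils and the 10.8% after LPS. Of the markers named here, those outside a short list chosen for their cell type were named after their values were seen. All 13 mature neutrophil markers were listed, with S100a9 at a baseMean of 1290830. In unstimulated neutrophils 4 of the 13 passed, all higher in Vim-/-, namely Cd177 (0.95), Mmp8 (0.90), Itgam (0.59, SE 0.134, adjusted p = 0.000255) and Cxcr2 (0.54, SE 0.158, adjusted p = 0.00565), while Ly6g (0.30, SE 0.202) and Csf3r (0.22, SE 0.222) did not pass. After LPS 1 of the 13 passed, Cd177 (0.89, adjusted p = 1.57e-05), and Itgam was at 0.17 (adjusted p = 0.494). Of 11 progenitor markers 9 were in the tables, and 2 passed in each comparison, all lower: Cd34 (-1.01, SE 0.183, adjusted p = 1.33e-06) and Gata2 (-0.61) unstimulated, and Cd34 (-0.67) and Myb (-0.50) after LPS. Kit was at 0.21 (SE 0.215, adjusted p = 0.545) unstimulated.

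The immature granulocyte markers went both ways. In unstimulated neutrophils 6 of 13 passed, with Chil3 (1.34), Camp (0.95), Ngp (0.51) and Lcn2 (0.40) higher in Vim-/- and the granule proteases Ctsg (-2.55, SE 0.289, adjusted p = 3.11e-16) and Prtn3 (-1.14, SE 0.214, adjusted p = 3.82e-06) lower. Mpo (-1.35, SE 0.549, adjusted p = 0.0659) and Elane (-0.69, SE 0.857, adjusted p = 0.637) did not pass. After LPS 5 of 13 passed, 2 higher (Camp and Ngp) and 3 lower (Ctsg, Prtn3 and Gfi1).

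Markers of other blood cells also moved in both directions. Of 12 monocyte or macrophage markers 6 were in the tables, and in unstimulated neutrophils Csf1r (-0.93, SE 0.219, adjusted p = 0.000427) and Adgre1 (-0.40) fell and Irf8 (4.21, SE 1.19, adjusted p = 0.00448) rose, whereas after LPS 2 passed, Csf1r and Adgre1, both lower. Of 7 mast cell or basophil markers 6 were in the tables, of which Cpa3 fell (-0.96, SE 0.123, adjusted p = 8.36e-13) and Cma1 (3.50, SE 0.956, adjusted p = 0.00298) and Tpsb2 (3.05, SE 1.07, adjusted p = 0.0282) rose unstimulated, and after LPS 1 passed, Cpa3 (-0.72). The eosinophil list had 1 of 5 passing unstimulated, Siglecf (-0.79), and 2 after LPS, Siglecf (-0.65) and Il5ra (3.80), and its granule gene Prg2 had a baseMean of 268319. Of 6 lymphocyte markers 3 were in the tables. Unstimulated, 2 were lower in Vim-/-, Nkg7 (-1.63) and Cd3d (-1.17), and after LPS all 3 were. The level of each marker list in each group is not in the tables, and the part of a different mix of mature, immature or other cells in the cell cycle result was not tested.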

How the data were processed

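Poly(A) RNA was sequenced from 10 libraries in 4 groups, which were taken from the sample labels. Per the methods, reads were adapter- and quality-trimmed (Cutadapt 4.4) and mapped and counted on mm10 (STAR 2.7.10b), and the authors fitted DESeq2 1.26.0 with 4 RUVSeq covariates of unwanted variation. The signal in the authors' deposited tables is baseMean, the mean normalized count. The deposited log2 fold changes and standard errors, the Wald statistic (a score) and each p-value, raw or adjusted, come from the authors' DESeq2 fit. The annotation and the strand setting used for counting are not given in the sources used here, and genes that share reads with close copies or overlapping genes remain uncertain.

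Each table holds 1 of the authors' own comparisons, and no counts per library were at hand, so their Wald test was used. The sign of both genotype comparisons was turned to Vim-/- over Vim+/+. Adjusted p was missing for 254 genes in the genotype comparisons and for 762 in LPS in Vim-/-, none of them among the 55 genes, and such genes counted as not passing. 95% intervals were computed from the standard errors. The difference of LPS responses used both standard errors in a normal test over 13091 genes. It ignores any covariance that the covariates bring, which the tables do not give, and is approximate. Lengths are of GENCODE M21 principal transcripts, for 12046 genes and all 55 members, and positions and promoters are from RefSeq GRCm38.p6. Of the wider list, 3 genes were matched by older symbols. The members, lists and tests were chosen with earlier results of these data known. Named with full statistics are members that passed in any comparison, the 3 highest and 3 lowest Wald statistics of each role, the 2 highest and 2 lowest that passed of each wider list, and 10 markers. Alternatives were a fold threshold, a stricter adjusted p of 0.01, rescaled Wald statistics, a baseMean minimum of 100, centring on the median, adjustment over all genes, the difference taken between the genotype comparisons and, added after seeing the data, centring by length. Python 3.11.15, numpy 2.4.6, scipy 1.17.1, pandas 2.3.3 and matplotlib 3.10.9 were used.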

Additional observations from a re-analysis of the deposited data

How the results depend on the processing

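Of 51 alternative values of the counts and medians, 43 stayed within 1.5 times the count or within the spread of the median. Some of these could not move. None of the 55 genes was below a baseMean of 100, so that minimum left the medians as they were. A stricter threshold likewise could not change a count of 0. Of the unstimulated genotype comparison, 27 genes passed, and 8 did with the fold threshold, 16 at an adjusted p of 0.01 and 1 with rescaled Wald statistics. After LPS, 34 became 5 with the fold threshold and 5 with rescaled Wald statistics. For LPS in Vim+/+, 0 became 1 (Ccne1) with centring by length, and for LPS in Vim-/-, 2 became 0 with the fold threshold and 1 at an adjusted p of 0.01. The fold threshold and the adjusted p of 0.01 are stricter by construction, and for the others the cause was not tested. The share of all genes passing at an adjusted p of 0.01 is not given, so the counts at it have no background.

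Values of genes that did not pass changed sign in a few cases. In unstimulated neutrophils Gins1 was at -0.032 with rescaled Wald statistics, and centring by length gave Prim1 0.082, Rfc3 0.20, Rb1 -0.17 and Cdkn1b -0.0078. After LPS Cdkn1b was at -0.013 with rescaled Wald statistics, -0.021 centred on the median and -0.11 centred by length. Of the calls of single genes in the genotype comparisons, rescaling lost 55, centring by length 13 (it gained 1) and centring on the median 8. Ccnb1 in unstimulated neutrophils lost its call with adjustment over all genes (adjusted p = 0.0506). No paired analysis was possible because the tables hold no values per library, and for the same reason no replicate could be left out in turn, so it is unknown whether 1 replicate decides any value. With 2 and 3 replicates a group and 2 residual degrees of freedom, the standard errors limit what these tables can show.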
